A study of Mus musculus with 6 samples.

Results

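The 10 genes *G0s2*, *Pnpla2*, *Abhd5*, *Lipe*, *Plin2*, *Plin3*, *Plin4*, *Plin5*, *Dgat1* and *Dgat2*, of lipid droplets, lipolysis and triglyceride synthesis, were followed in dystrophic mouse muscle with and without an active Notch1 transgene. They were chosen by name, with earlier results of these data known. Their probes were the array's non-control probes whose listed RefSeq transcript belongs to one of them. They were 10 of the 13705 genes measured and had 12 probes. RNA came from the tibialis anterior (TA), a muscle of the lower leg, in 3 *mdx* and 3 N1ICD-*mdx* samples that the labels call biological replicates. Both groups carried the *mdx* allele and therefore lacked dystrophin, were 9 months old per the labels, had a 129 × C57BL/6 strain background and ate regular chow. In N1ICD-*mdx* mice, MCK-Cre, whose promoter is active in muscle fibers, additionally switched on a constitutively active Notch1 intracellular domain (N1ICD) from the *Rosa26* locus, and the other cells of the muscle do not use that promoter. The question for these genes was whether their RNA differed between the 2 genotypes.

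Muscle fibers store fatty acids as triglycerides in lipid droplets. The stores are built by acyltransferases, the last of which are DGAT1 and DGAT2, coated by perilipins (PLIN proteins), and emptied by adipose triglyceride lipase (ATGL, encoded by *Pnpla2*) followed by hormone-sensitive lipase (encoded by *Lipe*) and monoglyceride lipase (encoded by *Mgll*). CGI-58 (encoded by *Abhd5*) activates ATGL and G0S2 inhibits it, while PLIN5 ties droplets to mitochondria in oxidative muscle. Many of these genes are controlled by peroxisome proliferator-activated receptors (PPARs), and N1ICD acts on DNA through the protein RBPJ.

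*G0s2*, the inhibitor of ATGL, had the largest positive mean log2 ratio of N1ICD-*mdx* over *mdx* muscle among the 10 genes. *Plin2*, the most widely expressed droplet coat protein, had the most negative over all 3 arrays. The *Plin2* ratios by array were 0.03, -2.50 and -0.30. Without replicate 2 the mean of *Plin2* was -0.14, and *Lipe* (-0.29) and *Plin4* (-0.22) were lower. The *G0s2* ratio came from 1 probe, shown because this result rests on it. Its capitals run from the ATG that opens a reading frame without a stop codon, 44 bases and 14 whole codons long, to the probe's end, and 16 bases lie before it.
G0s2 probe A_52_P681391: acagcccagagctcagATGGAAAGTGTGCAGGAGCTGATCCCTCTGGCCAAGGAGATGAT
The 250 bases before the start sites of *G0s2* (chr1:193273189-193273438, minus strand) and of *Plin2* (chr4:86670060-86670309, minus strand) are shown, from RefSeq on GRCm38.p6. They are those of the genes at both ends of the mean ratios over all 3 arrays. Capitals mark matches to GTGGGAA, the RBPJ core, or to AGGTCA, the half-site that PPARs and other nuclear receptors bind, on either strand.
G0s2 promoter: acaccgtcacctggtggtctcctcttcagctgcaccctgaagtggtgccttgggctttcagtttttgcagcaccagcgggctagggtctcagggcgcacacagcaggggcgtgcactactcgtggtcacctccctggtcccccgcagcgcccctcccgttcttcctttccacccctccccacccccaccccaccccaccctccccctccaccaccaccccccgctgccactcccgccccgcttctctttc
Plin2 promoter: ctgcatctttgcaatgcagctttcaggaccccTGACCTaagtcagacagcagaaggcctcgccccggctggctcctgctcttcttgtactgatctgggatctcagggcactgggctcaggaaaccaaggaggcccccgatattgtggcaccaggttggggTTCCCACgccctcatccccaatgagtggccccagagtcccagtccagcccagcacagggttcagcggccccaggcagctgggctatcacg
The *Plin2* window held TTCCCAC, the RBPJ core read on the other strand, ending 83 bases before the start, and TGACCT, the half-site on the other strand, ending 212 bases before it. The annotated *Plin2* gene reaches to 86670217, so the start site used here is not its outermost. Part of the window, with the RBPJ match, thus lies inside the annotated gene. The *G0s2* window held neither. Promoters were found for 8 of the 10 genes, as 10 windows because *Lipe* and *Plin5* each had a pair. GTGGGAA was in 1 of the 10 windows, that of *Plin2*, and in 5.415% of all 32851 windows. AGGTCA was in 3 of the 10, of *Abhd5*, *Plin2* and *Plin5*, and in 14.024% of all. The TATA box letters TATAAA and the PPAR repeat AGGTCANAGGTCA were in 0 of the 10 and in 12.368% and 0.033% of all. GTGGGAA and AGGTCA do not overlap each other, while the repeat contains the half-site. A match to these letters is a description of the sequence and no binding site.

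On every array an *mdx* muscle was labeled with Cy3 and the N1ICD-*mdx* muscle of the same replicate number with Cy5, never the reverse, so dye and genotype cannot be told apart in any value. All 12 probes were well above background in all 6 muscles, in 72 of 72 readings, and 0 were saturated. Of the other features of the arrays, the *mdx* muscle of replicate 2 stood apart, with correlations of 0.967 to 0.982 with the other muscles over all genes against 0.987 to 0.994 among those 5. The SD of the log2 ratios over all genes was 0.536 on its array and 0.244 and 0.238 on the others. Macrophage markers, 14 of 15 measured, summed to 107084 in that muscle and to 20350 to 44470 in the other 5. Myofiber markers, all 10 measured, summed to 438977 to 501905 in *mdx* and to 643021 to 720582 in N1ICD-*mdx* muscles, so the markers of the labeled tissue were present in every muscle. The sums did not overlap between the groups, and all 10 markers had positive mean ratios. On their brightest probes *Myh1*, *Acta1*, *Mb*, *Tnnt3* and *Pvalb* were positive on all 3 arrays, with means of 0.25 to 1.23. *Myh4*, *Ckm*, *Ryr1*, *Des* and *Atp2a1* had means of 0.08 to 0.27 and were each negative on at least 1 array. What part the share of fiber RNA had in the ratios of the genes followed here was not tested. *Notch1* itself had a log2 ratio of -0.12 (SE 0.08, n = 3 arrays). Whether its probe detects the N1ICD transgene is not known here, so that probe checks nothing about the genotype. The Notch target genes *Heyl*, *Nrarp*, *Hey1* and *Hes1* had mean log2 ratios of 0.44, 0.28, 0.21 and 0.11, each positive on all 3 arrays. Their adjusted p was 0.704 to 0.743 in limma. The targets *Hes5* and *Hey2* were not well above background on all arrays of either group. In whole muscle, fewer cells of a type and less RNA per cell cannot be told apart.

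No gene on the arrays passed an adjusted p under 0.05 in limma (0% of 13705), the 10 genes included. An unadjusted p under 0.05 was reached by 2 of the 10, *G0s2* and *Dgat2*, against 6.49% of all genes. At 1.5-fold or more with that p, 1 of the 10 was higher in N1ICD-*mdx* muscle, *G0s2*, against 0.474% of all genes, and 0 were lower, against 0.482%. *G0s2* and *Dgat2* were also the 2 genes higher on all 3 arrays, against 17.7% of all genes, and 0 were lower on all 3, against 16.4%. The levels of the groups did not overlap for 1 gene, *G0s2*, higher in N1ICD-*mdx* (7.75% of all genes), and for 0 genes higher in *mdx* (6.31%). The counts of genes higher on all arrays or with separate groups were thus near the shares over all genes. Because the 10 genes were chosen with earlier results of these data known, all these counts describe them and test nothing. The median log2 ratio of the 10 was 0.16, with 7 positive and 3 negative (3 and 7 under median centring in place of loess, which turned *Abhd5*, *Plin4*, *Plin5* and *Dgat1*), beside a median of -0.00 and 49.1% positive over all genes. By array the median of the 10 was -0.04, 0.41 and 0.21, so that replicates 2 and 3 carried it, and under median centring it was -0.05, where the median of all genes moved to -0.18.

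**Figure D1:**
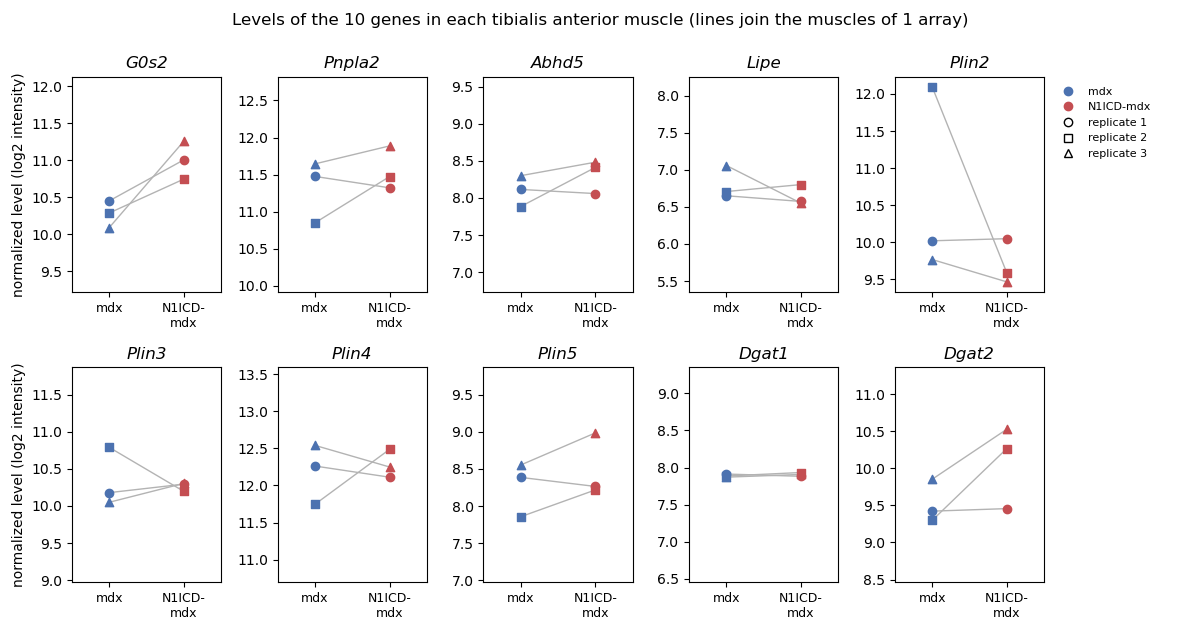
Normalized log2 intensity (vertical axis) of each of the 10 genes in the 3 *mdx* (blue) and 3 N1ICD-*mdx* (red) TA muscles, with lines joining the muscles of 1 array and every panel spanning the same number of log2 units. The *G0s2* groups are separate, from 10.09 to 10.45 and from 10.75 to 11.26, and a single *mdx* muscle at 12.10 stands above the rest in the *Plin2* panel.

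*G0s2* (chromosome 1, 193272160 to 193273188, GRCm38.p6) had normalized levels of 10.45, 10.29 and 10.09 log2 units in the *mdx* muscles of replicates 1, 2 and 3 and of 11.00, 10.75 and 11.26 in the N1ICD-*mdx* muscles. All 3 N1ICD-*mdx* muscles were above all 3 *mdx* muscles, and the lowest of them was that of replicate 2. The within-array log2 ratios were 0.55, 0.46 and 1.16. Their mean was 0.72 (SE 0.17, n = 3, 95% confidence interval 0.26 to 1.19), a 1.65-fold higher level with an unadjusted p of 0.0117 and an adjusted p of 0.704 in limma. It ranked number 40 from the highest of 13705 genes. The array of replicate 3 gave the largest of its 3 ratios, and without that array the mean was 0.50, under 1.5-fold, against 0.81 without replicate 1 and 0.86 without replicate 2.

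The raw signals of *G0s2* show how far this separation rests on the balancing of the dyes. The median signals were 1891, 1140 and 1411 in *mdx* and 1833, 1161 and 2275 in N1ICD-*mdx* muscle, which overlap. The median signals over all spots were 25, 23 and 27 in Cy5 against 53, 49 and 51.5 in Cy3. The median backgrounds were 17 on every array in Cy5 and 42, 47 and 45 in Cy3. These medians are therefore mostly background and do not measure how far the dyes differed. Spots well above background made up 54.3%, 51.6% and 57.3% in Cy5 and 48.2%, 45.9% and 51.1% in Cy3. With the processed signals, in which the extraction software had itself balanced the dyes, the ratios were 0.60, 0.61 and 1.29. All 14 alternative settings left *G0s2* at an unadjusted p under 0.05, with ratios of 0.49 to 1.00. The adjusted p was 0.0956 to 0.974, from limma in all but the methods' t-test, which gave 0.658.

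*G0s2* is a gene that fat cells also express strongly, so the adipocyte markers are given beside it. The 9 of 10 listed markers that were measured summed to 15665 to 18930 in *mdx* and to 22317 to 28268 in N1ICD-*mdx* muscle, and *Lep* was not kept. Of these 9, 8 had a positive mean ratio and 1 a negative one. *Fabp4*, which capillary endothelium expresses too, made up 70.6% to 87.7% of each sum and had a log2 ratio of 0.55 (0.83, 0.14 and 0.70 by array). Without it, a sum taken after the values were seen, the other 8 markers came to 4599, 3741 and 4272 in *mdx* and to 2760, 5581 and 5915 in N1ICD-*mdx* muscle, so that N1ICD-*mdx* replicate 1 was the lowest of the 6 and the groups overlapped. On the array of replicate 1, 6 of the 9 markers were lower in N1ICD-*mdx* muscle (median over the list -0.32), against 1 on that of replicate 2 and 0 on that of replicate 3 (medians 0.50 and 0.56). The fat cell hormone *Adipoq*, among those 6, had ratios of -0.85, 0.52 and 0.79. Fat in the dissected muscle as a part of the *G0s2* or *Dgat2* values was not tested.

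*Pnpla2*, encoding ATGL, the first lipase of the droplet and the target of G0S2, had levels of 11.48, 10.85 and 11.65 in *mdx* and of 11.32, 11.47 and 11.89 in N1ICD-*mdx* muscle. The groups overlapped, and the *mdx* muscle of replicate 2 was the lowest of the 6. Its log2 ratios were -0.15, 0.62 and 0.24, with a mean of 0.24 (SE 0.17, 95% confidence interval -0.23 to 0.71, adjusted p = 0.715 in limma). Without replicates 1, 2 and 3 in turn the mean was 0.43, 0.04 and 0.23. The difference of the *G0s2* and *Pnpla2* log2 ratios was 0.71, -0.17 and 0.92 by array, with a mean of 0.49 (SD 0.58). An exact two-sided sign-flip test gave p = 0.5, and 0.667 adjusted over the 4 pairs of genes compared in this way. With 3 arrays that test cannot give a p below 0.25.

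*Abhd5*, encoding the ATGL activator CGI-58, was the single gene of the 10 with more than 1 probe. Its brightest probe read 8.12, 7.88 and 8.30 in *mdx* and 8.06, 8.41 and 8.48 in N1ICD-*mdx* muscle, with the *mdx* muscle of replicate 2 again lowest. The log2 ratios were -0.06, 0.53 and 0.18, with a mean of 0.22 (SE 0.14, 95% confidence interval -0.16 to 0.60, adjusted p = 0.706 in limma). The other 2 probes gave means of -0.09 (-0.37, 0.34 and -0.25) and 0.06 (-0.07, 0.32 and -0.06). All 3 probes were thus positive on the array of replicate 2 and negative on that of replicate 1, and they disagreed on that of replicate 3. Without replicates 1, 2 and 3 in turn the brightest probe's mean was 0.35, 0.06 and 0.24. The ratios of *Abhd5* and *Pnpla2* differed by a mean of -0.02 (SD 0.10, exact sign-flip p = 1, adjusted p = 1), the smallest difference among the 4 pairs.

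*Lipe*, encoding hormone-sensitive lipase, had levels of 6.65, 6.71 and 7.06 in *mdx* and 6.57, 6.80 and 6.55 in N1ICD-*mdx* muscle. One *mdx* muscle, that of replicate 3, lay above the other 5. The log2 ratios were -0.08, 0.09 and -0.51, with a mean of -0.16 (SE 0.15, 95% confidence interval -0.56 to 0.23, adjusted p = 0.755 in limma). Without replicates 1, 2 and 3 in turn the mean was -0.21, -0.29 and 0.01, so the sign rested on the array of replicate 3. With array quality weights it was -0.39 at an unadjusted p of 0.0158 and an adjusted p of 0.15 in limma. Those weights were 1.10, 0.24 and 3.78 for replicates 1 to 3, so that this value leaned on the same array of replicate 3. The *Lipe* probe was dim, with median signals of 86, 75.5 and 123 in *mdx* over backgrounds of 32, 36 and 34. In N1ICD-*mdx* muscle they were 49, 51.5 and 48 over 16, 17 and 17, about the size of the offset of 50. With the processed signals the ratios lay wider apart, at -0.04, 0.53 and -0.84.

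**Figure D2:**
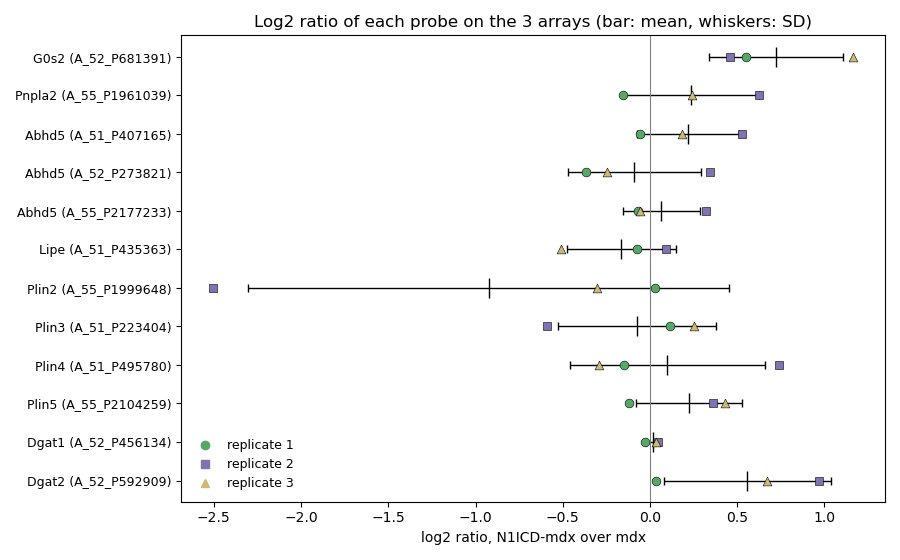
Log2 ratio of N1ICD-*mdx* over *mdx* muscle (horizontal axis) for each of the 12 probes, named with its gene on the vertical axis, with 1 point per array, a bar at the mean and whiskers of 1 SD. The 3 *G0s2* points lie from 0.46 to 1.16, the *Plin2* points from -2.50 to 0.03, and the *Dgat1* points within 0.05 of zero.

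*Plin2*, encoding the droplet coat protein that rises with lipid load in most cell types, macrophages included, had levels of 10.02, 12.10 and 9.77 in *mdx* and of 10.05, 9.59 and 9.47 in N1ICD-*mdx* muscle. The *mdx* muscle of replicate 2 was far above the other 5, which lay within 9.47 to 10.05. The log2 ratios were 0.03, -2.50 and -0.30, with a mean of -0.93 (SD 1.38, SE 0.55, 95% confidence interval -2.41 to 0.56), with an unadjusted p of 0.163 and an adjusted p of 0.704 in limma. Without replicates 1, 2 and 3 in turn the mean was -1.40, -0.14 and -1.24, and with array quality weights it was -0.33. The muscle high in *Plin2* was the one with the summed macrophage marker level of 107084, against 44470 and 28246 in the other *mdx* muscles. Of the 14 macrophage markers 13 had negative mean ratios, with medians over the list of -0.13, -1.99 and -0.17 by array. What part macrophage RNA had in the *Plin2* values was not tested.

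**Figure D3:**
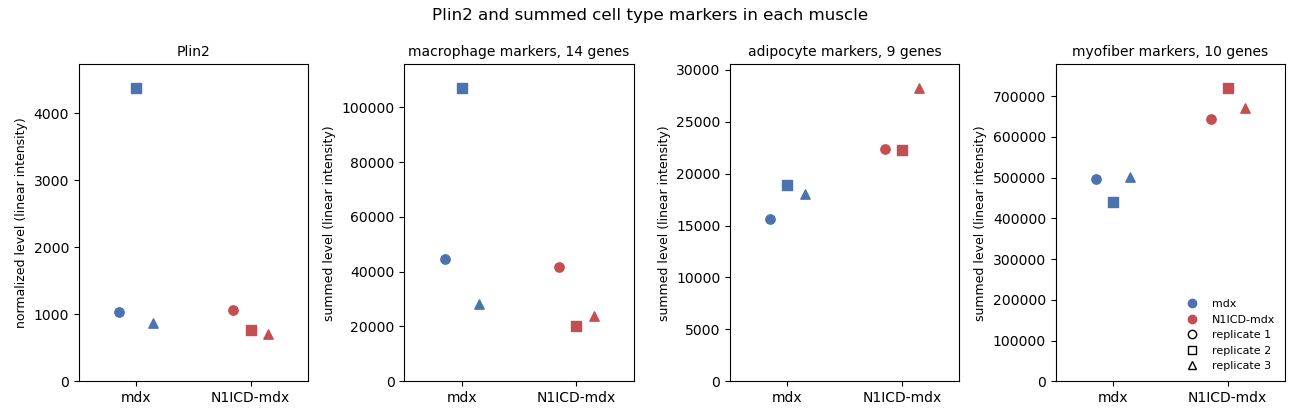
Linear normalized intensity of *Plin2* and summed linear intensity of macrophage, adipocyte and myofiber markers (vertical axes, each from 0) in each of the 6 muscles, colored by genotype and with 1 marker shape per replicate. The *mdx* muscle of replicate 2 is highest for *Plin2* and for the macrophage sum (107084), and all 3 N1ICD-*mdx* muscles exceed all 3 *mdx* muscles in the myofiber sum. They also do in the adipocyte sum, which is mostly *Fabp4*, while without it N1ICD-*mdx* replicate 1 is the lowest of the 6 muscles.

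*Plin3*, encoding a coat protein found on small and newly formed droplets, showed the same muscle at the top, at 10.18, 10.79 and 10.05 in *mdx* and 10.29, 10.20 and 10.31 in N1ICD-*mdx* muscle. Its ratios of 0.11, -0.59 and 0.26 averaged -0.07 (SE 0.20, 95% confidence interval -0.61 to 0.46, adjusted p = 0.912 in limma), and 0.18 without replicate 2. *Plin4*, encoding a perilipin abundant in fat and striated muscle, ran the other way, with the *mdx* muscle of replicate 2 lowest. Its levels were 12.26, 11.75 and 12.54 in *mdx* and 12.11, 12.49 and 12.25 in N1ICD-*mdx* muscle. The ratios of -0.15, 0.74 and -0.29 averaged 0.10 (SE 0.24, 95% confidence interval -0.54 to 0.74, adjusted p = 0.902 in limma), and -0.22 without replicate 2. For both perilipins the array of replicate 2 set the sign of the mean.

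*Plin5*, encoding the perilipin of oxidative tissues that binds ATGL and CGI-58, had levels of 8.39, 7.86 and 8.55 in *mdx* and 8.26, 8.22 and 8.99 in N1ICD-*mdx* muscle. The groups overlapped, and replicate 3 had the higher levels in both genotypes. The log2 ratios of -0.12, 0.36 and 0.43 averaged 0.22 (SE 0.14, 95% confidence interval -0.17 to 0.61, adjusted p = 0.706 in limma). Leaving out replicates 1, 2 and 3 in turn gave 0.40, 0.16 and 0.12. Array quality weights, which counted replicate 3 most, gave 0.31 at an unadjusted p of 0.0442 and an adjusted p of 0.216 in limma. Within the perilipins, the log2 ratio of *Plin5* minus that of *Plin2* was -0.15, 2.86 and 0.73, with a mean of 1.15 (SD 1.55, exact sign-flip p = 0.5, 0.667 adjusted over the 4 pairs).

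*Dgat2*, encoding 1 of the unrelated enzymes that add the third fatty acid to make triglyceride, had levels of 9.42, 9.30 and 9.85 in *mdx* and 9.46, 10.26 and 10.52 in N1ICD-*mdx* muscle. The N1ICD-*mdx* muscles of replicates 2 and 3 were above all *mdx* muscles, and that of replicate 1 lay among them. The log2 ratios were 0.03, 0.97 and 0.67, with a mean of 0.56 (SE 0.21, 95% confidence interval 0.003 to 1.11), or 1.47-fold. The unadjusted p was 0.0491 and the adjusted p 0.704 in limma, and *Dgat2* ranked number 113 of 13705 genes. Without replicate 1 the mean was 0.82 with an unadjusted p of 0.0105, past 1.5-fold, without replicate 2 it was 0.35 with a p of 0.0713, and without replicate 3 it was 0.50 with a p of 0.159. An unadjusted p under 0.05 was met in 7 of 14 alternative settings.

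*Dgat1*, encoding the other such enzyme, was the steadiest of the 10. It read 7.91, 7.89 and 7.87 in *mdx* and 7.88, 7.93 and 7.91 in N1ICD-*mdx* muscle. The log2 ratios were -0.03, 0.05 and 0.04, with an SD of 0.04 over the 3 arrays and a mean of 0.02 (SE 0.08, 95% confidence interval -0.21 to 0.24, adjusted p = 0.952 in limma). The *Dgat2* ratio exceeded that of *Dgat1* by 0.06, 0.92 and 0.64, with a mean of 0.54 (SD 0.44) and the same direction on 3 of 3 arrays. The exact sign-flip p of 0.25 is the smallest this design allows, and it was 0.667 adjusted over the 4 pairs. Scaling mattered here, since median centring put *Dgat1* at -0.21, close to the shift of -0.18 that it gave all genes.

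Across the 10 genes the array of replicate 2 held the ratio farthest from zero for 7, that of replicate 3 for 3 and that of replicate 1 for 0. The *mdx* muscle of replicate 2 had the lowest level of the 6 muscles for 5 genes (*Pnpla2*, *Abhd5*, *Plin4*, *Plin5* and *Dgat2*) and the highest for 2 (*Plin2* and *Plin3*). The N1ICD-*mdx* muscle of replicate 3 had the highest level for 5 genes (*G0s2*, *Pnpla2*, *Abhd5*, *Plin5* and *Dgat2*) and the lowest for 2 (*Lipe* and *Plin2*). On the array of replicate 1 the ratios of the 10 lay between -0.15 and 0.55, with 4 positive, and *G0s2* alone was outside -0.15 to 0.11. The log2 ratios over all genes correlated at r = 0.00 between replicates 1 and 2, 0.36 between 1 and 3 and 0.12 between 2 and 3, a correlation across genes, which are not independent replicates.

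**Figure D4:**
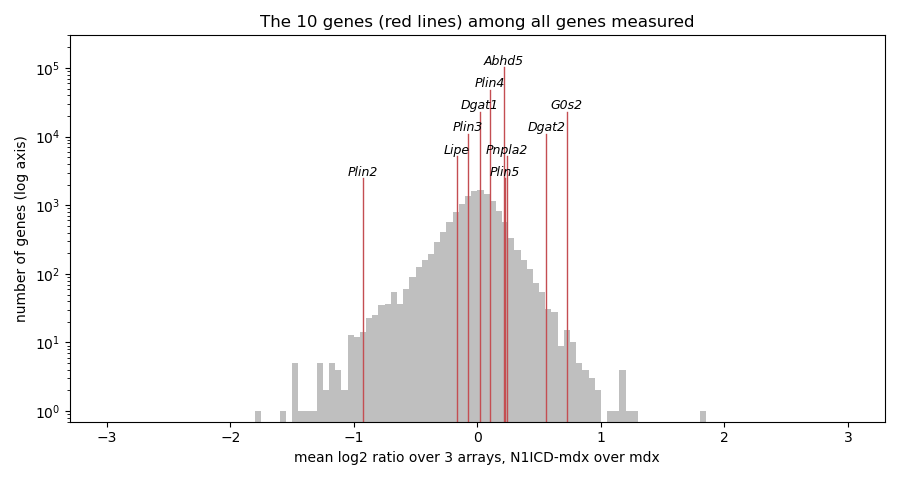
Number of genes (vertical, log axis) at each mean log2 ratio of N1ICD-*mdx* over *mdx* muscle (horizontal axis, 3 arrays) among 13705 genes, with a red line for each of the 10 genes whose height carries no value. *G0s2* and *Dgat2* lie in the upper tail at 0.72 and 0.56, *Plin2* in the lower tail at -0.93, and the other 7 between -0.16 and 0.24.

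Of 12 other lipases and regulators of lipolysis, all measured, 6 had positive and 6 negative ratios, with a median of 0.00. An unadjusted p under 0.05 was reached by 1, *Mgll*, which completes lipolysis by cleaving monoglycerides. Its ratios on the brightest probe were 0.88, 0.54 and 0.56, with a mean of 0.66 (SE 0.11), an unadjusted p of 0.00315 and an adjusted p of 0.704 in limma. The other 2 probes gave 0.27 and 0.36, so the size depended on the probe. *Plin1*, the coat protein of fat cell droplets, which is also an adipocyte marker in these lists, was at 0.17 (-0.30, 0.50 and 0.33). *Hilpda*, an inhibitor of ATGL that is separate from G0S2, was at -0.05, with -0.38 on the array of replicate 2, and *Lipa*, the lysosomal acid lipase, named after its value was seen, was at -0.93 with ratios of -0.10, -2.21 and -0.47.

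Of 21 other genes of triglyceride synthesis, 18 were measured, 10 with positive and 8 with negative ratios and a median of 0.02, and 0 reached an unadjusted p under 0.05. *Mogat1*, *Mogat2* and *Gk* were not well above background on all arrays of either group. *Gpam* and *Gpat4*, the mitochondrial and endoplasmic reticulum enzymes of the first acylation, were at 0.05 and 0.00. *Lpin1*, the phosphatidate phosphatase of muscle, was at 0.47 (0.11, 1.38 and -0.08) on the brightest probe and at 0.05 on the other. Its mean thus came from the array of replicate 2.

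Of 16 other genes of droplet formation and droplet proteins, 13 were measured, 6 positive and 7 negative with a median of -0.05. *Rab18*, a small GTPase of the droplet surface, reached an unadjusted p of 0.0128 at a mean ratio of 0.36 (0.40, 0.40 and 0.27; SE 0.09; adjusted p = 0.704 in limma). *Cidec*, which enlarges droplets in fat cells, was at 0.46 (-0.32, 0.90 and 0.79) on the brightest probe and at 0.18 on the other. Both probes had the same signs by array as *Adipoq*. *Fitm1* and *Fitm2*, endoplasmic reticulum proteins of droplet budding, were at -0.11 and 0.08, and *Bscl2*, encoding seipin, at -0.14.

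Of 19 PPAR-regulated genes of muscle fat use, all measured, 10 were positive and 9 negative with a median of 0.00, and 0 reached an unadjusted p under 0.05. *Angptl4*, which inhibits lipoprotein lipase, was at -0.97 (0.58, -2.26 and -1.23), with opposite signs on the arrays. *Pdk4*, which restrains glucose oxidation, was at -0.02 because its ratios of -0.18, 1.63 and -1.50 cancelled. *Cd36*, the fatty acid transporter, was at -0.20 (0.03, -0.74 and 0.11), with the array of replicate 2 alone negative. *Fabp3*, the fatty acid binding protein of muscle, was at 0.15 (0.14, -0.24 and 0.54). Every one of the 4 lists thus had about as many positive as negative ratios, as did all genes, of which 49.1% were positive.

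**Figure D5:**
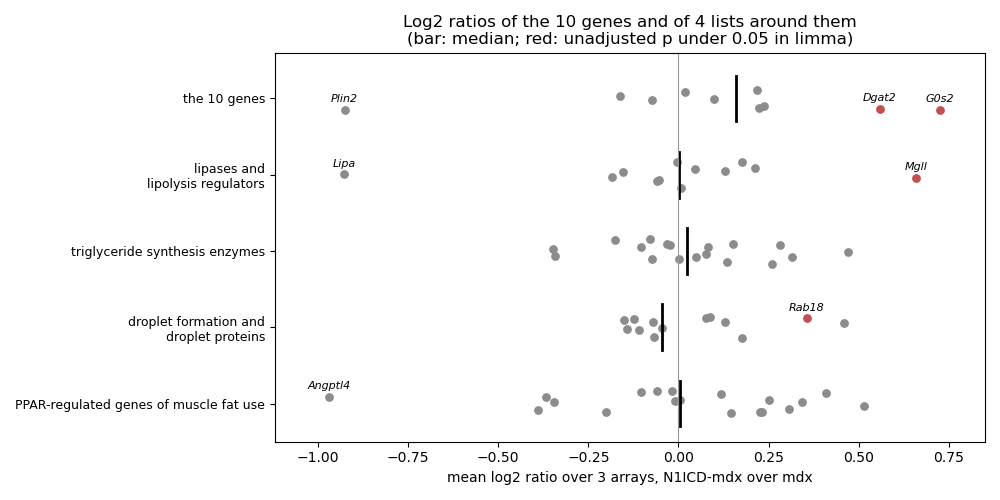
Mean log2 ratio of N1ICD-*mdx* over *mdx* muscle (horizontal axis, 3 arrays) for the 10 genes and for each measured gene of 4 further lists (rows, with points spread vertically for legibility), with a bar at each median and red points for an unadjusted p under 0.05 in limma. Medians lie between -0.05 and 0.16, and the red points are *G0s2*, *Dgat2*, *Mgll* and *Rab18*.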

How the data were processed

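Total RNA of 6 TA muscles was hybridized to 3 two-color Agilent mouse arrays, with *mdx* in Cy3 and N1ICD-*mdx* in Cy5. The scans had been extracted with Agilent Feature Extraction (11.5 per the labels, 11.5.1.1 in the headers). The authors' deposited intensity values are median spot and background signals, not normalized, beside processed signals that the software had background-subtracted and dye-normalized.

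The median signals were corrected by normexp (offset 50) and normalized by loess in limma 3.58.1 (R 4.3.3, data.table, version 1.17.8). Levels per muscle were further scaled between arrays (Aquantile) and are log2 values, comparable between muscles for 1 probe and not between probes. Probes were kept when the software called them well above background in every muscle of at least 1 group, 17813 of the 28026 (of 55681) that a RefSeq table of GRCm38.p6 named, and the brightest probe stood for a gene. Coordinates are those of that table. The array design used an earlier build.

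The 3 log2 ratios were tested against 0 by limma with moderated variances, which holds the array as a block, and p was adjusted by Benjamini and Hochberg over 13705 genes. Labels call the samples biological replicates. Same-numbered muscles share an array, and within-array deviations correlated at -0.02, -0.29 and 0.34. The 10 genes, the wider lists and the marker lists were chosen with earlier results of these data known. Named genes are the 10, *Notch1* with its listed targets, fixed ones of each wider list by role, and any gene of those lists with an unadjusted p under 0.05. *Lipa*, and markers given beside a result, were named after their values were seen. The number of arrays, 3, limits the precision of every mean. Alternatives were other background corrections, the processed signals, median centring, other probe filters, the mean over probes, a trend with robust variances, no replicate block, the methods' t-test, array quality weights and leaving out each replicate.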

Additional observations from a re-analysis of the deposited data

How the results depend on the processing

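An adjusted p under 0.05 was reached by 0 of the 10 genes in the fit and in all 14 alternatives. Over all genes that count was 0, and 1 with no replicate block, 1 with array quality weights and from 0 to 3 on leaving out a replicate, 3 of them without replicate 2. Genes past both 1.5-fold and an unadjusted p of 0.05 numbered 131 (65 higher and 66 lower), and 222 with an offset of 10, 444 with processed signals (271 and 173), 421 with median centring (30 and 391), 206 with array quality weights, 67 with the methods' t-test, which found 914 genes at an unadjusted p under 0.05 and 0 after adjustment, and 185 to 207 on leaving out a replicate. Of the 10 genes, 1 met that rule, against 2 with no background correction or an offset of 10, 0 with median centring, and 0 to 2 without a replicate (0 without replicate 3). At an unadjusted p under 0.05 there were 2 of the 10, and 1 with processed signals, median centring, no filter, no replicate block or the methods' t-test, 4 with array quality weights and 1 to 2 without a replicate. With no replicate block *Dgat2* had an unadjusted p of 0.0972 and *G0s2* one of 0.00285. The block changed no other call of the 10.

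Signs turned for several genes, among them *Abhd5* and *Plin5*, each at a mean of 0.22 in the fit. With median centring the log2 ratios were -0.021 for *Abhd5*, -0.075 for *Plin4*, -0.022 for *Plin5*, -0.21 for *Dgat1*, -0.061 for *Gpam*, -0.22 for *Gpat4* and -0.11 for *Fitm2*. With processed signals *Plin3* was at 0.065, *Gpat4* at -0.067 and *Pdk4* at 0.040, and with an offset of 10 *Gpat4* was at -0.0038. With array quality weights, 1.10, 0.24 and 3.78 for replicates 1 to 3, *Plin3* was at 0.19, *Plin4* at -0.21, *Hilpda* at 0.12, *Gpam* at -0.094 and *Cd36* at 0.051. Leaving out a replicate gave ranges of -0.092 to 0.15 for *Gpat4*, -0.84 to 0.73 for *Pdk4*, -0.24 to 0.18 for *Plin3*, -0.22 to 0.29 for *Plin4*, -0.16 to 0.11 for *Hilpda*, -0.11 to 0.13 for *Gpam*, -0.0029 to 0.15 for *Fitm2*, -0.35 to 0.069 for *Cd36*, -0.29 to 0.0087 for *Lipe*, -0.35 to 0.059 for *Fitm1* and -0.052 to 0.34 for *Fabp3*. Median centring also moved the median of all genes, to -0.18, beside which its turned ratios should be read. The causes of the turns were not tested. *G0s2* and *Dgat2* stayed positive, and *Plin2* negative, in all 14 alternatives. All values rest on 3 arrays without a dye swap, and 9 of the 10 genes on 1 probe each.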
